A study of Mus musculus with 8 samples.

Results

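The genes described here encode the proteins of the cytosolic ribosome. They were taken by symbol from the table of read counts: Rplp0, Rplp1, Rplp2 and Rpsa, and each symbol made of Rpl or Rps, a number and at most an a, x, l or y and a further digit. Symbols of pseudogenes and of the Rps6k kinases were left out, and at least 15 counts summed over the 8 libraries were required. Of 17261 rows in the table, 82 matched the pattern and 80 had enough counts, 33 of the small and 47 of the large ribosomal subunit. Rpl39l, with no count in any library, and Rpl3l, with 2 counts in all, fell out. Rpl34 did not pass the filter on low counts, so 79 members were tested among 11955 genes.

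The libraries came from microglia, the resident macrophages of the brain, sorted as CD11b+ cells with intermediate CD45 from brains of wild-type male C57BL/6 mice. Young mice were 10 weeks and aged mice 18 months old. Each had undergone either occlusion of the distal middle cerebral artery (dMCAO), a model of stroke, or a sham operation, and cells were taken 14 days later. Each of the 4 groups of age and surgery had 2 libraries. The labels do not say whether the 2 libraries of a group came from separate or pooled animals, so p-values measure only the spread between these libraries.

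A cytosolic ribosome holds a single copy of nearly all of its proteins, so their messenger RNAs are made in near-balanced amounts and are among the most abundant in a cell. These messenger RNAs begin with a terminal oligopyrimidine (TOP) tract, a run of C and T at the cap, through which their translation is controlled by mTOR and the binding protein Larp1. Many of the genes also host small nucleolar RNAs (snoRNAs) in their introns. In microglia, as in other macrophages, ribosome production accompanies growth and activation.

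The annotated starts of members whose RNA was higher in aged microglia are shown first, because a pyrimidine tract at the start is the sequence feature such genes are known for. Each line gives 15 bases before and 15 bases from the RefSeq start (build GRCm38.p6), 5′ to 3′ on the gene's strand. Capitals mark the longest run of at least 8 C or T that touches the stretch from 20 bases before to 30 bases after the start. The first lines were picked as called members whose run lies wholly inside the 30 printed bases. In the other called members with a run, it lies partly or wholly outside them. The run of Rps25 begins 22 bases before the start. Those of Rpl4 and Rps7 begin only at base 27 and base 23 after it. RefSeq starts are annotation and were not measured in these cells.
Rps6 (chr4:86857353-86857382, minus strand): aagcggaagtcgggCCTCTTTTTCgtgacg
Rps9 (chr7:3704026-3704055, plus strand): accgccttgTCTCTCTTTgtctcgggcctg
Rps24 (chr14:24490663-24490692, plus strand): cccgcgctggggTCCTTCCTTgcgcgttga
Rpl28 (chr7:4792950-4792979, plus strand): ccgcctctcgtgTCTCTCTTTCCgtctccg
Rpl35 (chr2:39005117-39005146, minus strand): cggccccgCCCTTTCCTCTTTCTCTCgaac
Rpl14 (chr9:120571502-120571531, plus strand): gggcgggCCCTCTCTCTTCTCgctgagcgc
Of the 16 members that passed the test for age and have a RefSeq window, 11 held such a run; Rplp0 and Rpsa are among the 5 without one.
Rplp0 (chr5:115559452-115559481, plus strand): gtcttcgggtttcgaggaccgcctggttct
Rpsa (chr9:120127751-120127780, plus strand): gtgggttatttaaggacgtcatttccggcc
The paralogues Rpl22l1 and Rpl7l1, which did not pass it, are set beside them.
Rpl22l1 (chr3:28805493-28805522, plus strand): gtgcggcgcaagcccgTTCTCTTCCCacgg
Rpl7l1 (chr17:46782642-46782671, minus strand): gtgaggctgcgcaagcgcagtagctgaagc

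A RefSeq promoter window was at hand for 59 of the 80 members. A pyrimidine run that touches the stretch defined above stood in 38 of them (64.4%). It stood in 23.4% of all 27025 promoters in the table and 21.9% of the 9076 promoters of tested genes. Some of the members' runs begin well downstream of the start, as at base 29 in Rpl37 and base 30 in Rpl9. Genes for mitochondrial ribosomal proteins, which are not known as TOP genes, had such a run in 19 of 69 windows (27.5%). CCGGAA, the core of the motif of ETS factors, was found on either strand of the 300 bases in 30 of 59 members (50.8%), in 15.2% of all promoters, in 29.4% of those of tested genes and in 56.5% of the mitochondrial set. AAGATGG, the core of the YY1 motif, stood in 15.3% of members (9 of 59), 6.48% of all promoters and 7.55% of those of tested genes. In the mitochondrial set it stood in 18.8%, more than in the members. TATAAA stood in 10.2% of members, 14.2% of all promoters, 6.85% of those of tested genes and 5.8% of the mitochondrial set. CCGGAA and AAGATGG can share bases, and a match is a description of letters only. The age difference described below had a median of 1.14 on the log2 scale in the 37 tested members with the run and of 1.1 in the 21 without it.

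Library depth differed with age. The 4 young libraries held between 4181698 and 5767387 counts and aged sham 2 held 5124213, whereas the other 3 aged libraries held 747637 to 1484870. Between 9126 and 10473 genes were detected in those 3 and 13322 to 14469 in the rest. Rn45s, the ribosomal RNA precursor, took 12.7 to 34.3% of counts in the 3 shallow libraries and 3.44 to 8.6% elsewhere. Depth and the share of Rn45s therefore moved with age, and their part in the results was not tested, beyond the comparisons with and without these libraries given below. All 12 microglial marker genes were detected in every library. Their summed level was 7042 CPM (counts scaled to a common total, here over TMM-scaled totals) in aged sham 2 and 16283 to 23733 CPM in the other 7. Aged sham 2 also had the most monocyte marker RNA, 9770 CPM over 12 genes against 232 to 1910 CPM elsewhere. The 10 choroid plexus and ependymal markers summed to 5337 and 3643 CPM in the aged dMCAO libraries, 896 and 373 CPM in aged sham and 3.54 to 386 CPM in the young, with Otx2, Tmem212 and Ccdc153 at 0 in all 4 aged libraries. In the aged dMCAO libraries the monocyte markers summed to 1071 and 1910 CPM, against 232 to 1283 CPM in the young. In each of the 2, 7 of the 12 were detected, with Ly6c2 at 0 and Fn1 at 509 and 867 CPM (33.6 to 420 CPM in the young).

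Ribosomal protein genes took a larger share of the counts in aged than in young microglia. The 80 members made up 0.994 and 1.43% of all counts in young sham 1 and 2 and 1.43 and 1.39% in young dMCAO 1 and 2. They made up 2.72 and 2.68% in aged sham 1 and 2 and 2.4 and 2.21% in aged dMCAO 1 and 2. No aged library overlapped a young one, and the mean shares were 2.5% ± 0.241 (SD, n = 4) and 1.31% ± 0.212 (SD, n = 4), a ratio of 1.91. In the shallowest library, aged dMCAO 1, the 95% Wilson interval was 2.37 to 2.44%, and it covers counting error only. With Rn45s taken out of the totals, the ratio of the means was 2.17. A share of counts is relative to the other RNAs of a library: a change in RNA per cell and a change in the mix of sorted cells cannot be told apart. Aged sham 2 had the depth of a young library and a share of 2.68%, like the shallow aged sham 1. It was also the library lowest in microglial markers, at 7042 CPM, and highest in monocyte markers, at 9770 CPM. Whether depth had a part in the share was not tested.

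**Figure D1:**
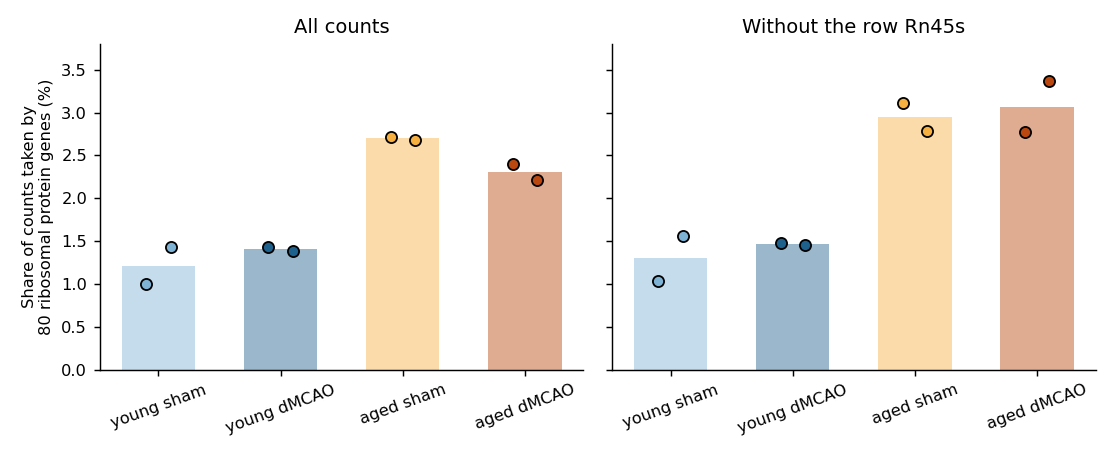
Share of the counts (vertical axis, %) taken by the 80 ribosomal protein genes in each group, over all counts (left) and without the row Rn45s (right). Points are the 2 libraries of a group and bars their mean; the lowest aged library stands at 2.21% on the left, above the highest young library at 1.43%.

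Averaged over both surgeries, 25 members rose with age and none fell (edgeR quasi-likelihood test, Benjamini-Hochberg adjusted p under 0.05 over all 11955 genes). Of all tested genes, 0.744% were called higher and 0.569% lower. Of the 79 tested members 73 were above 0, and the median difference was 1.14 on the log2 scale (2.2-fold), against -0.24 over all tested genes. All 4 aged libraries lay above all 4 young ones for 63 members (3.83% of all tested genes), and below them for none (10.7%). The members moved closely together: 72 of 79 lay within 0.5 of their own median on the log2 scale, as 38.9% of all tested genes did around theirs. That share is not one of genes at a like level. A mean above 64.89 CPM was found for 73 members and for only 2916 other tested genes. Small and large subunit members had nearly the same median, 1.13 over 33 genes with 8 called and 1.14 over 46 genes with 17 called.

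The size of the difference was steadier than the number of calls. Leaving out any 1 library kept the median between 0.98 and 1.33 and the number of members above 0 at 73 to 75. The number of calls, by contrast, went to 0 when any 1 of the 4 young libraries was left out, and to 27, 45, 53 and 35 without aged sham 1, aged sham 2, aged dMCAO 1 and aged dMCAO 2, where 1.36, 2.66, 2.38 and 1.77% of all genes were called higher. The young libraries varied less, with a common coefficient of biological variation of 0.205 against 0.878 in the aged ones.

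**Figure D2:**
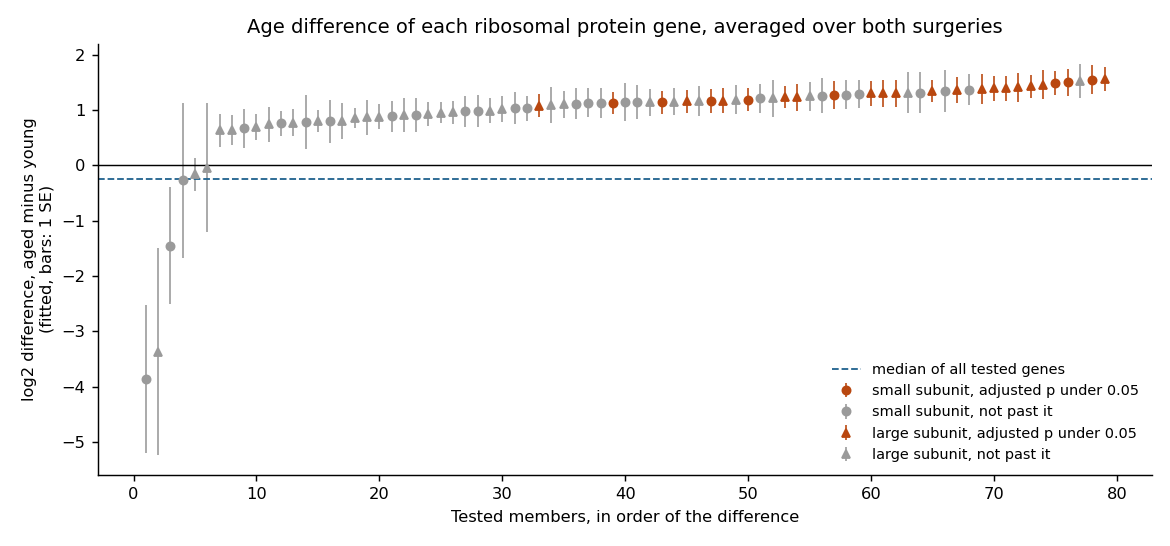
Fitted log2 difference, aged minus young averaged over both surgeries (vertical axis), for the 79 tested members in ascending order (horizontal axis), with bars of 1 SE. Circles are small and triangles large subunit members, filled dark orange where the adjusted p was under 0.05; 73 lie above 0, while the dashed median of all tested genes is at -0.24.

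In the following, values are CPM in the order sham 1, sham 2, dMCAO 1, dMCAO 2. Among small subunit proteins, Rpsa, the laminin-receptor-related protein of the subunit, was at 278, 430, 447 and 443 CPM in young and 1260, 976, 890 and 1360 CPM in aged libraries. The lowest aged library stood well above the highest young one, and the fitted difference was 1.5 ± 0.24 (SE) on the log2 scale (adjusted p = 0.0378, edgeR). Rps6, the classic substrate of the S6 kinases downstream of mTOR, was at 248, 327, 325 and 348 CPM in young and 791, 685, 1180 and 877 CPM in aged libraries. Its groups did not overlap, and its difference was 1.49 ± 0.21 (adjusted p = 0.0336, edgeR). Rps14, mapped at the platform of the subunit, stood at a lower level, with 43.8, 82.2, 59.3 and 60.2 CPM in young and 142, 117, 246 and 252 CPM in aged libraries, a difference of 1.55 ± 0.26 (adjusted p = 0.0388, edgeR). Both aged dMCAO libraries were above both aged sham libraries for this gene. Rps27a, which is made as a fusion with ubiquitin, was at 128, 195, 175 and 164 CPM in young and 354, 383, 336 and 401 CPM in aged libraries. The 4 aged values lay within a narrow band, and the gene rose by 1.16 ± 0.22 (adjusted p = 0.0469, edgeR). Rps7, Rps9, Rps24 and Rps25 were the other small subunit genes that rose, with log2 differences of 1.13 to 1.27.

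Among large subunit proteins, Rpl23a, which lies at the exit of the peptide tunnel, had the smallest p of all members. It was at 172, 225, 192 and 199 CPM in young and 575, 417, 606 and 765 CPM in aged libraries, a difference of 1.56 ± 0.21 (2.96-fold, adjusted p = 0.0322, edgeR). Rpl23a (chr11:78180932-78183584, GENCODE M21 on GRCm38) overlaps Tlcd1 on the opposite strand and has 14 named pseudogenes, so some of its reads may be shared. Rplp0, the core of the P stalk that recruits elongation factors, was at 238, 281, 311 and 358 CPM in young and 753, 788, 669 and 965 CPM in aged libraries. The groups were apart, and it rose by 1.43 ± 0.21 (adjusted p = 0.034, edgeR). Its stalk partner Rplp2 was at 167, 279, 231 and 205 CPM against 722, 325, 637 and 916 CPM, with a difference of 1.53 ± 0.31 that just missed the threshold (adjusted p = 0.0536, edgeR). Rplp1, the other acidic stalk protein, was at 246, 462, 357 and 332 CPM in young and 968, 403, 522 and 666 CPM in aged libraries. Aged sham 2 lay among the young values for Rplp1, and its difference of 0.87 ± 0.32 did not pass (adjusted p = 0.17, edgeR).

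Rpl4, with its long extension into the tunnel, was at 283, 351, 327 and 380 CPM in young and 873, 717, 847 and 953 CPM in aged libraries. It had 335 ± 41 CPM (SD, n = 4) in young and 847 ± 97.8 CPM (SD, n = 4) in aged microglia and rose by 1.34 ± 0.2 (adjusted p = 0.034, edgeR). Rpl5 and Rpl11 form a complex with 5S ribosomal RNA that also binds the p53 regulator Mdm2. Rpl5 was at 336, 422, 429 and 431 CPM in young and 1080, 778, 709 and 859 CPM in aged libraries and rose by 1.08 ± 0.21 (adjusted p = 0.0473, edgeR). Rpl11 was at 94.2, 171, 192 and 127 CPM and at 402, 325, 283 and 319 CPM, and its difference of 1.19 ± 0.26 did not pass (adjusted p = 0.0622, edgeR), although its groups did not overlap. The other large subunit genes that rose, from Rpl17 at 1.16 and Rpl35 at 1.17 to Rpl13a at 1.41 and Rpl29 at 1.46, had differences inside the range from Rpl5 to Rpl23a. Rpl41, the smallest of the ribosomal proteins, rose by 1.38 ± 0.27 at the threshold itself (adjusted p = 0.05 after rounding, edgeR).

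**Figure D3:**
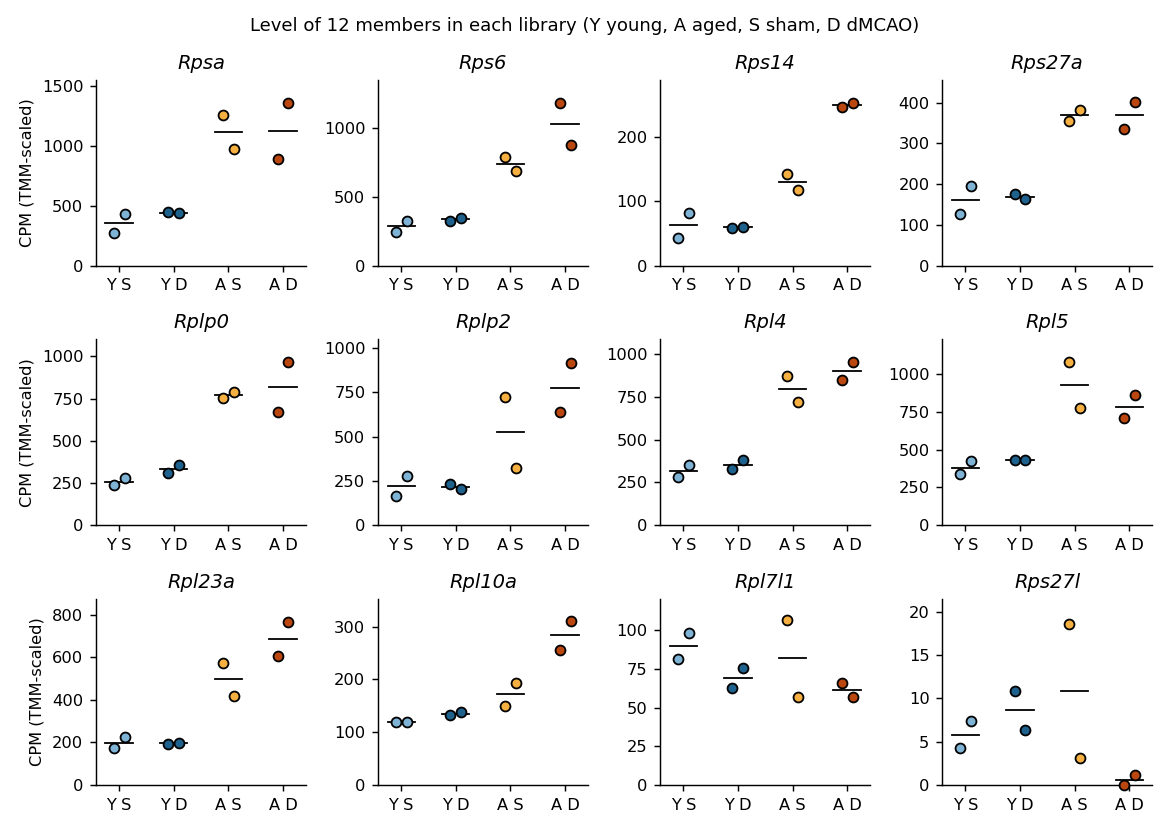
Level in CPM over TMM-scaled totals (vertical axes, each from 0) of 12 members in the 2 libraries of each group of age and surgery (horizontal axes), with black lines at the group means. In 10 of the 12 panels every aged library lies above every young one; Rpl7l1 and Rps27l show no such step.

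Only 6 tested members were not above 0 for age, and 4 of them are the paralogues named with an l after the number, forms that stand beside a main gene. Rpl7l1, a relative of Rpl7, was the only one of the 6 with a mean above 10 CPM. It was at 81.2, 98.3, 62.8 and 75.6 CPM in young and 107, 56.9, 65.8 and 56.9 CPM in aged libraries, which overlapped, with a difference of -0.16 ± 0.3 (adjusted p = 0.805, edgeR). Its parent Rpl7 was at 217, 297, 311 and 307 CPM and at 636, 579, 495 and 477 CPM, a difference of 0.95 ± 0.19 (adjusted p = 0.0552, edgeR) with no overlap. Rps27l, a p53-responsive copy of Rps27, was at 4.27, 7.33, 10.9 and 6.34 CPM in young and 18.6, 3.06, 0 and 1.09 CPM in aged libraries. The 2 aged sham libraries thus held both the highest and a low value.

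Rps4l was at 8.69, 11.7, 6.13 and 11.2 CPM in young libraries, 12.9 and 12.4 CPM in aged sham and 0 in both aged dMCAO libraries. GENCODE M21 annotates it as a transcribed processed pseudogene at chr6:148354656-148355598, overlapping Tmtc1 on the opposite strand. Its parent Rps4x, on the X chromosome, was at 119, 183, 170 and 184 CPM and at 388, 340, 199 and 511 CPM, a difference of 1.14 ± 0.31 (adjusted p = 0.101, edgeR). Rpl22l1 stayed below 9 CPM in every library, with a difference of -0.04 ± 1.16. Its parent Rpl22 was at 57.5, 141, 107 and 112 CPM and at 258, 178, 166 and 189 CPM, with 0.91 ± 0.31 (adjusted p = 0.146, edgeR). The remaining members not above 0, Rps27 and Rpl30, had at most 13.1 and 2.61 CPM in any library. Averaged over both surgeries, 0 of 4 paralogues were above 0, while 73 of the other 75 members were; this was not tested, and 3 of the 4 paralogues had few counts. The contrast in sign was not seen in sham mice, where 3 of the 4 paralogues and 73 of the other 75 members were above 0. In dMCAO mice 0 of 4 and 74 of 75 were.

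In sham mice alone, 76 of 79 members were higher in aged than in young microglia, with a median of 1.19 (2.28-fold) against -0.02 for all genes. None passed the test in edgeR, in which 0.0% of all genes did, while 62 members had an unadjusted p under 0.05, as 9.44% of all genes did. DESeq2 called 39 members and 2.45% of all genes higher. Both aged sham libraries lay above both young sham libraries for 73 members (18.3% of all tested genes) and below them for 0 (26.1%). Rplp0 had the smallest p, with 1.57 ± 0.29 (adjusted p = 0.269, edgeR), and Rpsa the largest difference, 1.66 ± 0.34, with Rpl41 next at 1.58 ± 0.38. When the 3 shallow aged libraries were left out, so that aged sham 2 alone stood against the 2 young sham libraries, 63 members were called higher and 1 lower, with a median of 1.1. In that fit 14.8% of all genes were called higher and 12.6% lower. The fit, chosen after seeing the data, assumes that the lone library varies like the young groups, and aged sham 2 is the library rich in monocyte markers. Without aged sham 2 instead, the median was 1.3 and 78 members were above 0.

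In dMCAO mice alone, 74 of 79 members were higher in aged microglia, with a median of 1.01 (2.01-fold) against -0.32 for all genes. None passed in edgeR (0.0753% of all genes did), and 54 had an unadjusted p under 0.05, as did 19.6% of all genes. DESeq2 called 45 members higher and 1 lower, beside 4.53% and 5.56% of all genes. The libraries did not overlap for 66 members in the higher direction (15.5% of all genes) and for 3 in the lower (40.4%). Rps14 had the largest difference, 2.06 ± 0.38 or 4.16-fold (adjusted p = 0.0816, edgeR). Among members whose libraries did not overlap, Rplp2 came next in size and then Rpl23a with 1.81 ± 0.31. Rps6 had 1.61 ± 0.3 and Rpl23 1.55 ± 0.32, both among the 4 smallest p of this comparison. The 3 lower ones were Rps4l, Rps27l and Rpl30. Over the group, Rps4l had 0 counts in aged and 88 in young dMCAO libraries, at least 4.76-fold lower against a floor of 3 counts over the aged group. Rps27l had 1 count against 84, a ratio of 13.6 (95% exact counting interval 2.38 to 545). Rpl30 had 0 against 25, at least 1.35-fold lower.

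**Figure D4:**
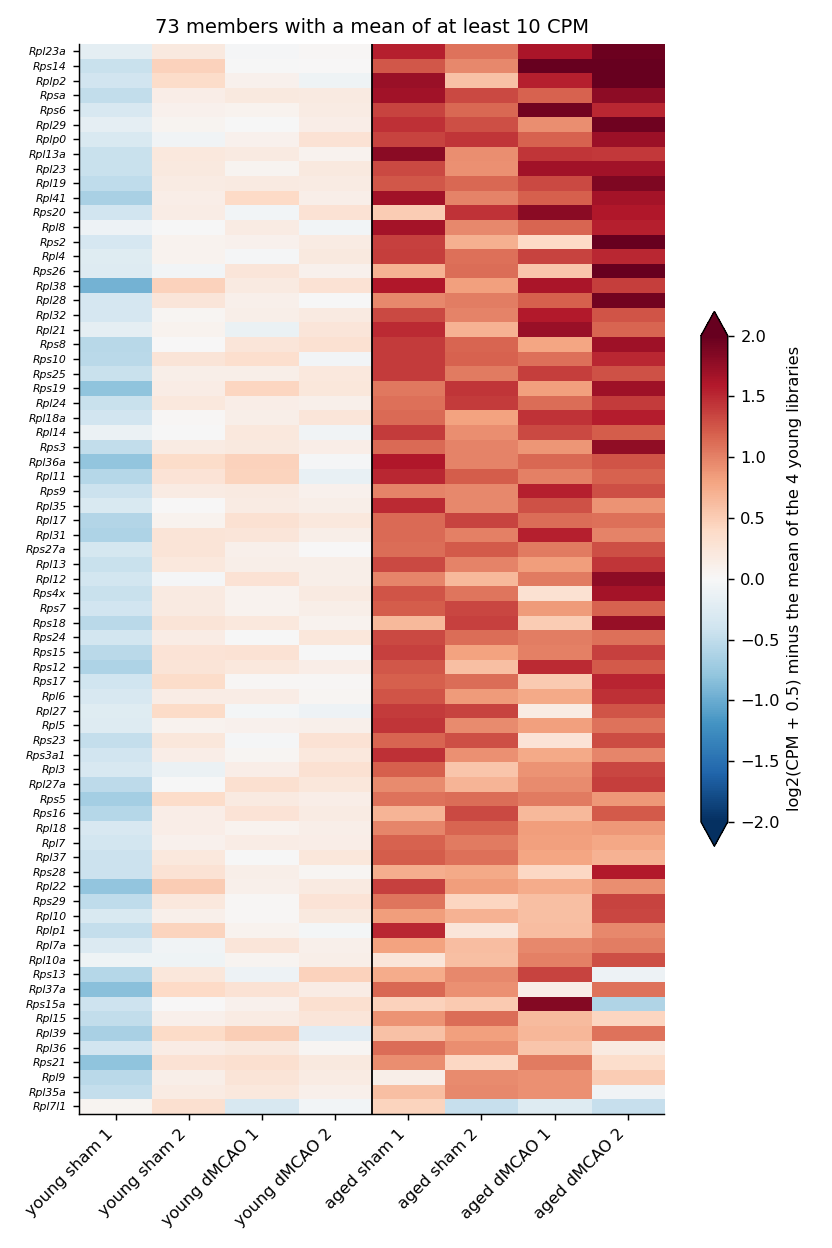
log2(CPM + 0.5) of 73 of the 74 members with a mean of at least 10 CPM (rows, ordered by the age difference) in the 8 libraries (columns), minus each gene's mean over the 4 young libraries; the colour scale ends at -2 and 2. The 4 aged columns are red for nearly all rows, young sham 1 is blue for nearly all rows, and Rpl7l1 in the bottom row stands apart.

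No member passed the test for dMCAO against sham at either age. In young mice the median of dMCAO against sham was 0.24 (1.18-fold), with 71 of 79 members above 0 and a median of 0 for all genes. None was called (0.00836% of all genes were) and none had an unadjusted p under 0.05, as 1.24% of all genes did, and DESeq2 called none. Libraries did not overlap for 25 members in the higher direction (20.7% of all genes) and for 1 in the lower (20.4%). The value depended on 1 library. In all, 76 of 79 members were lower in young sham 1 than in young sham 2, by a median of 0.61. Without young sham 1 the median of dMCAO against sham was -0.05 with 31 members above 0, and without young sham 2 it was 0.55 with 77 above 0. Rps19 at 0.59 ± 0.44 and Rpl27a at 0.52 ± 0.31, among the members with the largest differences, had adjusted p = 1.0 (edgeR). The 2 young dMCAO libraries differed from each other by a median of only -0.02 over the members.

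In aged mice the median of dMCAO against sham was 0.07 (1.05-fold), with 47 of 79 members above 0 and a median of -0.29 for all genes. None was called by edgeR (0.0335% of all genes were), 5 had an unadjusted p under 0.05 (18.3% of all genes did), and DESeq2 called 1 lower (5.7% of all genes). Libraries did not overlap for 13 members in the higher direction (11.6% of all genes) and for 15 in the lower (23.8%), both of the order found among all genes. Of the 79 members 63 lay within 0.5 of their median (30.6% of all genes around theirs), beside 72 for age over both surgeries, 73 in sham and 58 in dMCAO mice. Rps14 was higher after dMCAO by 0.95 ± 0.37, Rpl10a by 0.72 ± 0.29 and Rps20 by 0.65 ± 0.39, with adjusted p from 0.234 to 0.402 (edgeR). In the other direction, Rpl36 was at 174 and 153 CPM in aged sham and at 117 and 90.8 CPM in aged dMCAO, which did not overlap, with -0.65 ± 0.35 (adjusted p = 0.347, edgeR). Rpl27 had -0.56 ± 0.45, also with no overlap (adjusted p = 0.528, edgeR). The sign of the members' median turned with single libraries. It was 0.21 without aged sham 1, -0.01 without aged sham 2, 0.17 without aged dMCAO 1 and -0.17 without aged dMCAO 2. On log2(FPKM + 1) 0 of 78 members, Rps14, Rpl10a and Rps20 included, were above 0 here, and the median was -0.92 for the members and for all genes alike. With each FPKM column centred on its median, 47 of 78 members were above 0.

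Of the low members, Rps4l had 0 counts in aged dMCAO against 91 in aged sham, at least 6.73-fold lower, yet did not pass (adjusted p = 0.148, edgeR). A count of 3 in the aged dMCAO libraries amounts to 4.29 and 3.28 CPM, so a level under these was not detectable. Rps27l had 1 count against 44, a ratio of 9.76 (95% exact counting interval 1.66 to 394). The test of whether the effect of dMCAO differed between the ages called no member and 0.0% of all genes in edgeR, and DESeq2 called no member. Its median over the members was -0.19, against -0.36 for all genes, and 2 members had an unadjusted p under 0.05 (10.4% of all genes did), Rps4l among them (adjusted p = 0.401, edgeR). Without young sham 1 the median was 0.15.

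Other genes of translation were set beside the members for age. Among ribosomal proteins under other names, Fau, made as a ubiquitin-like fusion, rose by 1.34 ± 0.25 and Gnb2l1, which encodes the scaffold Rack1, by 1.33 ± 0.2 (adjusted p = 0.0473 and 0.034, edgeR). In all 3 of the 4 genes of this list rose; Rpl36al had 0.66 ± 0.33 and did not pass. Of 21 other messenger RNAs known to carry a TOP tract, 20 were above 0, 13 rose and none fell, with a median of 1.22. They include the elongation factors Eef1a1 at 1.11 ± 0.21, Eef1b2 at 1.3 ± 0.25 and Eef1g at 1.17 ± 0.23, the initiation factor subunits Eif3f at 1.8 ± 0.28 and Eif3h at 1.32 ± 0.25, and Tpt1, a growth-related protein, at 1.22 ± 0.2. Tpt1 was at 794 ± 135 CPM (SD, n = 4) in young and 1840 ± 180 CPM (SD, n = 4) in aged microglia. The list also holds Fau and Gnb2l1, as well as Vim, which is a monocyte marker too.

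The lists of translation factors share genes with the TOP list. Of 36 initiation factors 26 were above 0 with a median of 0.37, and Eif3f and Eif3h were the 2 that rose. Of 9 elongation and termination factors 3 rose, all 3 of them TOP genes, and the median was 0.94. With TOP genes taken out, 22 of 32 initiation factors were above 0 with a median of 0.32, none called and 9 with an unadjusted p under 0.05. Likewise 3 of 4 elongation and termination factors were above 0, with a median of 0.28, none called and 0 with an unadjusted p under 0.05 (edgeR). The difference from the TOP genes was not tested. For this age comparison, 21.1% of all tested genes had an unadjusted p under 0.05 (edgeR). The counts of such genes in these lists stand against that share. Mitochondrial ribosomal proteins, which build the separate ribosome of that organelle, lay around 0: 36 of 77 were above it, the median was -0.05 and none was called, while 4 had an unadjusted p under 0.05. Ribosome biogenesis factors had a median of 0.01 over 63 genes, with Npm1, the nucleolar chaperone nucleophosmin, the only one that rose (1.29 ± 0.21, adjusted p = 0.0385, edgeR). RNA polymerase I genes had a median of -0.27 over 19 genes with none called and 3 with an unadjusted p under 0.05. These lists were fitted with TMM factors alone. The median of all genes was -0.13 with RLE factors and -0.29 with upper-quartile factors, and the members stood 1.37 above it with both and with TMM factors.

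Regulators of ribosomal protein synthesis had a median of -0.45 over 22 genes. Gcn1l1, which senses stalled ribosomes, fell by a log2 difference of -1.22 ± 0.2 (adjusted p = 0.0385, edgeR), and the mTOR partner Rptor, at 306 ± 15.1 CPM in young and 141 ± 42.6 CPM in aged microglia (SD, n = 4 each), just missed the threshold (adjusted p = 0.0552, edgeR). Mtor itself had -0.84 ± 0.23 (adjusted p = 0.107, edgeR). Non-coding hosts of snoRNAs, whose introns carry the same kind of cargo as ribosomal protein genes, had a median of -1.11 over 9 genes. Gas5 had -0.89 ± 0.33, none was called and 2 had an unadjusted p under 0.05, as 21.1% of all tested genes did. The 11 hosts in the count table summed to only 61.5 to 235 CPM in a library. Other genes at or below 7.804 CPM had a median of -1.38, and those from there to 23.34 CPM one of -0.21. Whether the low level of the hosts had a part was not tested. Within the ribosomal protein genes, the 30 members with a snoRNA gene inside had a median of 1.14 and the 49 tested members without one 1.13. Some abundant genes unrelated to the ribosome also rose. Of 17 genes of glycolysis and the cytoskeleton 15 were above 0, with a median of 0.76, and Pfn1, Aldoa and Cfl1 rose by 1.18 ± 0.19, 1.3 ± 0.22 and 1.08 ± 0.21 (adjusted p = 0.0378, 0.0388 and 0.0473, edgeR).

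**Figure D5:**
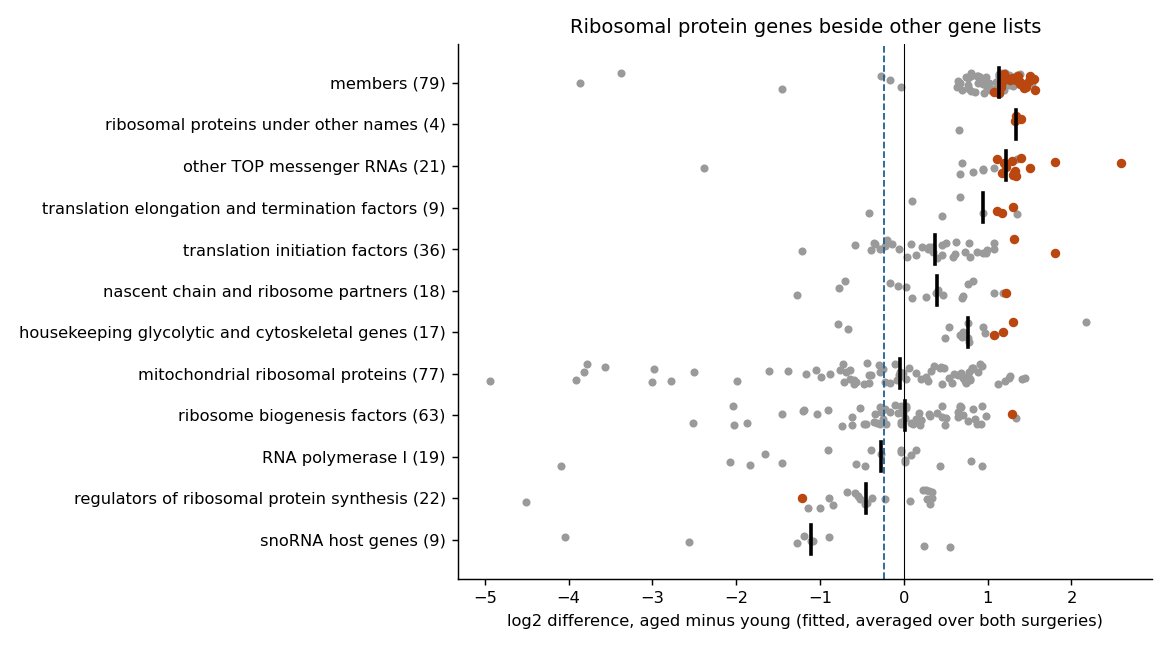
Fitted log2 difference, aged minus young averaged over both surgeries (horizontal axis), of each tested gene in 12 lists (rows, number of genes in brackets). Dark orange points passed the adjusted threshold of 0.05, black bars are medians and the dashed line is the median of all tested genes at -0.24; the members' median is 1.14, that of mitochondrial ribosomal proteins -0.05.

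The cell type markers that moved with age can be set beside these values. Microglial markers were lower in aged microglia in 11 of 12 genes, with a median of -1.02, and 2 of them passed. Choroid plexus and ependymal markers had a median of 5.18, with 3 of 7 tested genes called higher, and monocyte markers one of 1.63, with 1 of 11 called. Oligodendrocyte markers had a median of 2.43, with 1 of 5 called, and astrocyte markers 2.27, with 0 of 7 called and 5 at an unadjusted p under 0.05 (edgeR). The 8 oligodendrocyte markers summed to 84.8 to 124 CPM in the young, 401 and 162 CPM in aged sham and 983 and 638 CPM in aged dMCAO libraries. The 8 astrocyte markers summed to 121 to 161, 197 and 50.7, and 280 and 234 CPM in the same order. The part of these cell types in the result was not tested. Aged sham 2 was rich in monocyte markers and the lowest of the aged libraries in choroid plexus, oligodendrocyte and astrocyte markers. Its 162 CPM of oligodendrocyte markers still lay above the young libraries. Without aged sham 2, 75 ribosomal protein genes were above 0, with a median of 1.2. The comparison of sham mice, whose median was 1.19, leaves out the aged dMCAO libraries but is not free of choroid plexus RNA. Choroid plexus and ependymal markers summed to 896 and 373 CPM in aged sham and to 117 and 386 CPM in young sham libraries. Without either aged dMCAO library in turn, the median over both surgeries was 1.16 and 0.98.

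The second table holds FPKM (fragments scaled to exon length and library size), which allow levels of different genes to be set in order. Not all of its columns hold the library that the same name has in the count table: by correlation across genes, each aged dMCAO count column was closest to the FPKM column of the other, and the FPKM column of young sham 1 matched no count column well, so FPKM are given by group or over all columns. The 78 members in it took 2.85 to 6.03% of the column sum in the young and 4.61 to 7.15% in the aged columns, which overlapped. Per length the acidic stalk proteins led: Rplp2 had a mean of 634 FPKM over the 8 columns, from 327 to 1110, and Rplp1 628 FPKM, from 401 to 1180, which did not differ beyond their spread. Rps27 with 456 FPKM, Rpl23a with 371 and Rpl41 with 368 followed, each with a range that overlapped its neighbours. At the low end stood Rps27l with 10.1 FPKM, Rps15a with 5.41 and Rps4l with 4.35, with ranges from 0 to 31.7, 1.39 to 8.32 and 0 to 7.52 FPKM. On this scale the age difference of the members was smaller and that of all genes lower. The members' median over both surgeries was 0.32 with 64 of 78 members above 0 and 0 called (limma), against -0.86 for all genes, a gap of 1.18. In dMCAO mice alone the members' median on log2(FPKM + 1) was -0.15, below 0. With each column centred on its own median, the members' median over both surgeries was 1.18, with 75 of 78 above 0 and still 0 called.

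The tables disagreed on a few members. Relative to all genes, counts per kilobase of exon were 1380-fold below FPKM for Rpl34, which had 0.702 CPM and 296 FPKM on average, and 121-fold below for Rps27, with 4.89 CPM and 456 FPKM. Rpl22l1 was next, 8.47-fold below. Rps6, Rplp0 and Rps4l were highest in counts against FPKM. Of the 80 members 60 have at least 1 named pseudogene in GENCODE M21, 293 in all and up to 24 for 1 gene, and 19 overlap another protein-coding gene. How reads that match several copies were counted, and with which strand setting, is not given in the sources used here, so the counts of such members, and those of Rpl34, Rps27 and Rpl30 above all, are uncertain.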

How the data were processed

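RNA of the sorted cells was made into libraries with a SMARTer stranded total RNA kit (Pico) and read on an Illumina HiSeq instrument (per the labels' protocols). The submitters' processing notes name TopHat, TopHat2, Cufflinks 2.2.1, HTSeq 0.11.2 and build mm10, with no role. The authors deposited whole-number counts per symbol for 17261 genes, and FPKM for 23827 genes; which step made each table, with which annotation and strand setting, was not given in the sources used here. From 24 symbols a space was taken off, 2 columns of the FPKM table that name no sample were not used, and 17026 symbols were in both tables.

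Counts were fitted in edgeR 4.0.16 (R 4.3.3): filterByExpr (minimum count 10, total 15), TMM factors, glmQLFit and glmQLFTest over all 8 libraries with 4 group means (4 residual degrees of freedom), two-sided, Benjamini-Hochberg adjustment over 11955 genes, called under 0.05. Totals ranged from 747637 to 5767387 counts. CPM are over TMM-scaled totals. FPKM were tested with limma 3.58.1 on log2(FPKM + 1). Alternatives used DESeq2 1.42.0, limma-voom, other scalings and filters, thinned counts, replicate blocks and each library left out. The fit was also run on simulated counts that gave young and aged libraries the same coefficient of biological variation. In the data it was 0.205 in young and 0.878 in aged libraries, so that run does not cover this design. No result here rests on it. Exon lengths and positions came from GENCODE M21, promoter sequences from RefSeq. Figures were drawn with matplotlib 3.10.9.

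The members and lists were chosen with earlier results of these data known. Members were named by a rule: the 4 smallest p and the 3 largest differences each way (mean of at least 10 CPM, no overlap) in each comparison, the 5 highest and 3 lowest FPKM, Rplp0 to Rplp2, Rpsa, Rpl5, Rpl11, Rps6, Rps27a, paralogues with their parents, the 3 smallest p of each related list, the 3 extremes each way of counts against FPKM, and members left out of the test. Other members were named after their values were seen. Some genes that the rule picks are not reported here.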

Additional observations from a re-analysis of the deposited data

How the results depend on the processing

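The members' median age difference averaged over both surgeries lay between 1.08 and 1.24 on the log2 scale under every count-based scaling, filter and tool tried, and DESeq2 and RLE factors moved the median of all genes by just over 0.1. The number called higher changed more, here with the share of all genes called higher in brackets: 40 with RLE factors (1.16%), 12 with upper-quartile factors (0.385%), 65 with DESeq2 (6.07%), 49 with limma-voom (1.84%), 46 with quality weights (2.49%), 59 without a filter (3.48%), 32 at a mean of 5 CPM (1.07%), 36 after thinning to the smallest total (1.46%) and 25 when scaled without the members (0.744%). All 25 remained called in these settings except upper-quartile factors, where 12 did. With the replicate block by number 11 were called (0.368%), and 54 (2.43%) with the replicate block by the N code of the titles. The block by N code also gave 8 in sham (0.853%) and 4 in dMCAO mice (0.569%), and a median of -0.1 for aged dMCAO against sham. The difference between replicates 1 and 2, taken over tested genes, correlated between -0.08 and 0.09 from group to group. The N codes were not compared in this way, and whether libraries of the same number or code share a batch was not tested. In sham mice DESeq2 called 39 (2.45%), limma-voom with quality weights 23 (3.34%) and edgeR without a filter 18 (1.67%). In dMCAO mice they called 45 (4.53%), 14 (1.53%) and 22 (1.83%), and limma-voom 3 (0.318%). DESeq2 called 1 member lower in aged dMCAO against sham and 1 in aged against young dMCAO, beside 5.7% and 5.56% of all genes.

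On FPKM, 0 members were called higher with age under all 5 settings, and 1 lower with a pseudocount of 0.1 (6.85% of all genes). The median was 0.32 with pseudocounts of 1 and 0.1 and without a filter, 0.61 without the young sham 1 column and 1.18 with centred columns. In sham mice it was 0.73 (0.74 at the smaller pseudocount), 1.26 without that column and 1.16 centred. In dMCAO mice 1 was called lower at a pseudocount of 1 (9.45% of all genes), 2 at 0.1 (15.3%) and 0 in the other 3 settings. The median there was -0.15, and 1.16 centred with 74 of 78 above 0. For dMCAO in young mice it was -0.07, but 0.46 with 76 of 78 above 0 without that column, and 0.02 centred. In aged mice it was -0.92 or -0.93 with up to 1 called lower (1.05% of all genes at a pseudocount of 0.1), and 0.06 centred. The interaction was -0.9 or -0.91, -1.4 without that column and -0.01 centred. All genes stood at -0.92 and -0.9 for the last 2 at a pseudocount of 1. With 0 of 78 members above 0 there, those named in the report reversed for aged dMCAO against sham, Rps14 at -0.04, Rpl10a at -0.2 and Rps20 at -0.13, and, for the interaction without the young sham 1 column, Rps14 at -0.42; the cause was not tested. With 1 library left out at a time, the number called higher with age ranged from 0 to 53 over both surgeries and from 0 to 13 in dMCAO mice. The median then ranged from -0.05 to 0.55 for dMCAO in young mice, 0.91 to 1.53 for age in sham mice and -0.51 to 0.15 for the interaction, the extremes being the fits without young sham 1 or 2. Without the 3 shallow libraries, 63 were called higher and 1 lower in sham mice. The share of counts differed by 1.62 percentage points without Rn45s.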

Other observations

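The members were set beside other genes by exon length and by level, taken separately. By exon length, 62 of the 79 tested members had at most 2858 exon bases, as did 2822 other tested genes, whose median was -0.16 with 0.921% called higher. By level, 73 members had a mean of more than 64.89 CPM, as did 2916 other genes, whose median was -0.12 with 1.68% called higher. At or below 7.804 CPM, where 4 members stood, the median was -1.38 over 2985 other genes. The members' own median was 1.14.

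The columns of the 2 tables did not always match by name. Over 8836 genes, deviations of the counts of aged dMCAO 1 from the mean over libraries correlated best with the FPKM column named aged dMCAO 2 (r = 0.77), and those of aged dMCAO 2 with the column named aged dMCAO 1 (r = 0.68). Both young sham count columns correlated best with the FPKM column of young sham 2 (r = 0.58 and 0.39), and the FPKM column of young sham 1 reached 0.26 at most with any. These are correlations across genes, which are not independent replicates. Names were kept as given, and no result rests on pairing the tables library by library. In that FPKM column the median member was 27-fold above the median gene, against 12.5 to 18.9 in the other young and 37.4 to 63.7 in the aged columns.

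The 5 rows of ribosomal protein pseudogenes summed to 11.8 to 23.7 CPM in the young and aged dMCAO libraries and to 106 and 62.5 CPM in aged sham. Of the 4 tested, 3 were above 0 for age and none was called by edgeR, with Rpl14-ps1 at an unadjusted p under 0.05. The 4 members on the X chromosome had a median age difference of 1.01, all above 0 and none called. Each of the 4 had an unadjusted p under 0.05 (edgeR), as 21.1% of all tested genes did.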
